A study of Homo sapiens with 9 samples.

Results

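The 2 engineered lines of a TRAP-1 study are set against each other here: libraries of cells labelled as overexpressing TRAP-1 (OE) and libraries of cells labelled as TRAP-1 knockdown (KD). The libraries were chosen by their labels alone, replicates 1 to 3 of each line, which makes 6 of the 9 RNA sequencing libraries of the series. The other 3 come from unmodified parental cells of wild-type genotype; they entered the estimate of the spread and are given for orientation, but they had no part in the contrast. All 9 libraries are labelled as the human neuroblastoma line IMR-32, whose tissue is given as brain, and no treatment is named. The KD and OE cells had been made before the sequencing, and how TRAP-1 was lowered or raised, and whether a line is 1 clone or a pool, is not given in the sources used here. The labels also leave unsaid whether the 3 libraries of a line come from separate cultures, so the p-values measure the spread between libraries, and a difference between 2 lines cannot be told apart from an effect of TRAP-1. The values are regularized log2 values (rlog), shrunken toward the mean of each gene, from which the depth of a library cannot be read. Every difference below is OE minus KD on that log2 scale, and "higher" or "lower" means higher or lower in the libraries labelled OE.

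TRAP1 itself (ENSG00000126602, chromosome 16 from 3651639 to 3717553, minus strand) went against the labels. Its rlog values were 10.79, 10.79 and 10.83 in the libraries labelled KD, 10.67, 10.63 and 10.74 in those labelled OE and 10.67, 10.66 and 10.65 in the parental libraries. All 3 libraries labelled KD thus lay above all 3 labelled OE, and the parental values lay within the range of OE. The difference was -0.12 (adjusted p = 1.47e-04 from limma, standard error 0.025), and -0.071 after the median of its 20-Mb block was removed, while 28.5% of the exonic bases of TRAP1 are shared with other annotated genes. KD and OE therefore stand for the labels of the libraries and not for a measured level of TRAP1. Of its relatives in the HSP90 family of chaperones, cytosolic HSP90AA1 (0.38) and HSP90AB1 (0.12) were higher, and HSP90B1 of the endoplasmic reticulum was lower (-0.13).

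The labelled cell type was checked against lists of markers. Of 18 markers of adrenergic neuroblastoma, 11 were analysed here. MYCN, the oncogene for whose amplification IMR-32 is known, had mean rlog values of 2.60 in KD and 2.51 in OE, and the noradrenaline enzyme TH 2.66 and 2.69. Ranked per exonic length among all genes, MYCN stood at percentile 14.2, TH at 14 and the regulator PHOX2A at 10.3. ISL1 and GATA2, also regulators of that lineage, stood at percentiles 72.5 and 62.8. All 13 mesenchymal markers had values, and on the same scale the intermediate filament gene VIM stood at percentile 99.7, FOSL1 at 99.3 and CD44 at 98. Of the adrenergic markers, MYCN, TH and PHOX2A were thus low in every group, and others, led by ISL1, lay higher. The authors state that the IMR-32 cells had been authenticated. The name IMR-32 is used here as a label only. Taken back from the log2 scale and summed, the adrenergic list, led by ISL1, came to 1930, 1910 and 1950 in the 3 libraries labelled KD and 1840, 1920 and 1870 in those labelled OE. The mesenchymal list, led by VIM, came to 186000, 187000 and 185000 in KD and 186000, 185000 and 187000 in OE. The sums of both lists overlapped between the lines, but they rest on a few abundant genes and single markers differed. In the adrenergic list 2 were higher and 3 lower, with ALK at -0.42. In the mesenchymal list 6 were higher and 6 lower, with FN1 (1.51) and SNAI2 (0.27) up and PRRX1 (-0.60), NOTCH2 (-0.39) and VIM (-0.21) down.

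Some markers of other cell types did differ between the lines. The embryonic kidney list, led by the regulator EYA1, summed to 5170, 5160 and 5060 in KD and 3540, 3550 and 3500 in OE, with EYA1 (-0.85) and LHX1 (-0.63) lower. The glial list, led by the neuregulin receptor ERBB3, summed to 24000, 24200 and 23800 in KD and 22500, 22700 and 22800 in OE. Of its 5 members with values 2 were higher and 1 was lower. The calcium-binding protein gene S100B was higher (0.28), and ERBB3 was lower (-0.19). The epithelial list, led by the keratin gene KRT18, summed to 6680, 6870 and 6960 in KD and 5950, 5920 and 5980 in OE. Of its 11 members with values 2 were higher and 3 lower. The tight junction gene CLDN4 (-0.52) and LYPD3 (-0.44) were lower and the keratin gene KRT7 (0.19) was higher. In each of these 3 lists all libraries labelled OE lay below all labelled KD. The same held for the intestinal epithelial list (1540, 1530 and 1490 in KD, 1320, 1310 and 1270 in OE) and the hepatic list (532, 532 and 557 in KD, 451, 509 and 492 in OE), and the haematopoietic list was the reverse. In bulk RNA, more cells of a type and more RNA per cell cannot be told apart, and the part of these markers in the results below was not tested.

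As background, TRAP-1 is the HSP90 chaperone of mitochondria, where it keeps client proteins folded and is known for its influence on respiration, on the handling of reactive oxygen species and on stress responses of tumour cells. Neuroblastoma arises from the sympathoadrenal lineage of the neural crest. Its cells keep parts of the program of developing neurons, among them adhesion molecules, guidance receptors and ion channels, and can shift between adrenergic and mesenchymal states.

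Between the lines, 10552 of 22290 genes were called at an adjusted p under 0.05 from limma (47.3%), 5237 of them higher (23.5%) and 5315 lower (23.8%). In 12049 genes (54.1%) the 3 libraries labelled OE did not overlap the 3 labelled KD. Most called differences were small, and 6613 of the called genes (62.7%) differed by less than 0.2. With a difference over 0.5 required as well, 793 genes remained (3.56%), of which 357 were higher (1.6%) and 436 lower (1.96%), and 629 of the 793 are protein coding. Beyond 1 lay 145 called genes, 74 of them higher. Over all genes the median difference was 0.00078, close to 0. Protein-coding genes were called more often than genes at large, 29.9% of them higher and 27.5% lower, with a median of 0.0053, and the gene families below hold protein-coding genes except where stated. The root mean square difference between libraries was 0.0582 to 0.0607 among those labelled KD, 0.0606 to 0.063 among those labelled OE and 0.221 to 0.223 between the lines.

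For most of these genes the parental level was nearer to OE than to KD. Of the 793 genes, the parental mean was nearer to the OE mean in 715 (90.2%). In 374 it lay beyond OE and in 341 between the lines but nearer OE. Within the range of the 3 OE libraries it lay in 136. It lay nearer KD in 65 and beyond KD in 13. The share nearer OE was 96.1% of the 436 lower genes and 82.9% of the 357 higher genes. These positions are a description of means, since the same parental libraries serve both lines. All 203 called genes named in the text had no overlap between the 3 libraries labelled OE and the 3 labelled KD. They were named mainly for their large differences, and the largest increases and decreases were chosen without overlap. The count therefore follows largely from the choice of genes and is no separate support for their differences. Over all genes the share without overlap was 54.1%. The standard errors of the differences of the 203 genes lay between 0.0086 and 0.056.

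**Figure D1:**
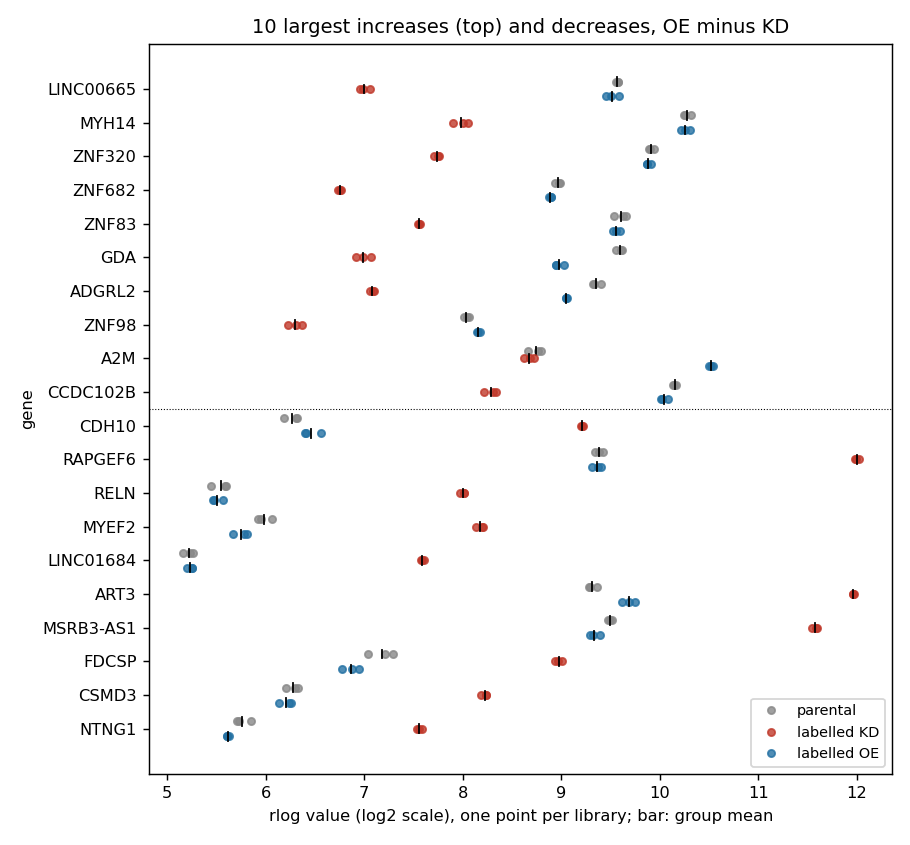
The rlog value (log2 scale, horizontal axis) of the 10 genes with a symbol with the largest increase and the 10 with the largest decrease is shown in each library, with grey points for parental, red for KD, blue for OE and a bar at each group mean. In 19 of the 20 genes the parental mean is nearer to OE than to KD, and A2M is the exception.

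The largest decreases were in genes of different kinds. CDH10 (ENSG00000040731, chromosome 5 from 24487100 to 24644978, minus strand), a type II cadherin that joins cells of the nervous system, had rlog values of 9.22, 9.20 and 9.22 in KD and 6.57, 6.41 and 6.40 in OE. Its KD values were close together and far above all OE values. The difference was -2.75 (adjusted p = 8.47e-30 from limma, standard error 0.047), and the parental values of 6.19, 6.32 and 6.31 lay just under those of OE. RAPGEF6 (ENSG00000158987, chromosome 5 from 131423921 to 131635231, minus strand), an exchange factor that activates Rap GTPases, had 12.02, 11.996 and 11.98 in KD and 9.38, 9.40 and 9.31 in OE. The groups were again wide apart, with a difference of -2.63 (adjusted p = 2.06e-35 from limma, standard error 0.028), but other genes share 54.9% of its exonic bases and the libraries were not stranded. RELN (ENSG00000189056, chromosome 7 from 103471381 to 103989658, minus strand), which encodes the secreted glycoprotein reelin that positions migrating neurons, had 8.01, 7.98 and 8.01 in KD and 5.47, 5.48 and 5.57 in OE. The OE values matched the parental range (5.45, 5.60 and 5.59), and the difference was -2.49 (adjusted p = 2.52e-28 from limma, standard error 0.049).

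Next came MYEF2 (-2.42), a repressor of the myelin basic protein gene, and LINC01684 (-2.35), a long noncoding RNA. ART3 (-2.28) belongs to a family of ADP-ribosyltransferases, MSRB3-AS1 (-2.24) is an antisense RNA and FDCSP (-2.11) encodes a small secreted protein. CSMD3 (-2.01) encodes a large membrane protein with complement-type domains. NTNG1 (-1.95) encodes netrin G1, a membrane-anchored guidance molecule of axons. ART3 and FDCSP lie on chromosome 4 between 60 and 100 Mb, a stretch whose well expressed genes (mean rlog of 8 or more) had a median difference of -0.529. After the median of their 20-Mb block was removed, their differences were -1.74 and -1.57, and the part of the stretch in the result was not tested, here and wherever a value after block removal is given. Of the exonic bases of ART3, 40.1% are shared with other genes.

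The largest increases were led by genes of chromosome 19, a long noncoding RNA, a myosin and 4 zinc finger genes. LINC00665 (ENSG00000232677, chromosome 19 from 36259540 to 36331770, minus strand) had rlog values of 7.06, 6.99 and 6.96 in KD and 9.58, 9.45 and 9.51 in OE. All OE values lay far above all KD values and next to the parental values of 9.56, 9.57 and 9.58. The difference was 2.51 (adjusted p = 1.26e-31 from limma, standard error 0.036). MYH14 (ENSG00000105357, chromosome 19 from 50188186 to 50310542, plus strand), the heavy chain of a nonmuscle myosin, had 8.003, 7.90 and 8.06 in KD and 10.22, 10.26 and 10.31 in OE. Its OE values overlapped the parental ones (10.25, 10.25 and 10.32), and the difference was 2.27 (adjusted p = 3.90e-31 from limma, standard error 0.034). ZNF320 (ENSG00000182986, chromosome 19 from 52860851 to 52897693, minus strand), a C2H2 zinc finger protein, had 7.75, 7.76 and 7.71 in KD and 9.87, 9.91 and 9.87 in OE. The groups again lay wide apart, with a difference of 2.15 (adjusted p = 1.09e-31 from limma, standard error 0.031).

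The other zinc finger genes among the 10 were ZNF682 (2.14), ZNF83 (2.0) and ZNF98 (1.86). GDA, the guanine deaminase that turns guanine into xanthine, had 7.06, 6.92 and 6.99 in KD and 8.95, 9.03 and 8.94 in OE, a difference of 1.98. The gene sits in a stretch of chromosome 9, from 60 to 140 Mb, with a median difference of 0.271, and after its block median of 0.31 was removed the difference was 1.67. ADGRL2 (1.97), the adhesion receptor latrophilin 2, and CCDC102B (1.75), a centrosome protein, were higher as well. A2M encodes alpha-2-macroglobulin, which traps proteases. Its values were 8.73, 8.62 and 8.68 in KD, 10.52, 10.54 and 10.50 in OE and 8.76, 8.66 and 8.80 in the parental libraries, a difference of 1.84 (adjusted p = 6.97e-29 from limma, standard error 0.034). The parental values overlapped those of KD, which sets A2M apart from the other 19 genes.

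Zinc finger genes named ZNF, most of them DNA-binding repressors of the KRAB type, separated the lines by position. Of 406 with values, 186 were higher and 74 lower, with a median of 0.052. On chromosome 19 lie 192 of them, where 119 were higher and 14 lower, with a median of 0.15. Past 0.5 lay 33 of these, all higher. Of the 214 ZNF genes of other chromosomes 67 were higher and 60 lower (median -0.0021), and of the 861 other protein-coding genes of chromosome 19 186 were higher and 290 lower (median -0.009). After block medians were removed, 299 of these other genes were higher and 221 lower, and their median turned positive (0.026). The ZNF genes of chromosome 19 then had 132 higher and 12 lower, with a median of 0.18. A pair of clusters, picked after the values were seen, stood out. Between 52 and 54 Mb, 25 of 27 ZNF genes were higher and 0 lower, with a median of 0.58, and between 19 and 25 Mb 30 of 33 were higher and 0 lower, with a median of 0.34. Of the 132 others on the chromosome 64 were higher and 14 lower (median 0.086). In all 33 that passed 0.5 the parental mean was nearer OE, at a median distance of 0.077 from OE and 0.958 from KD. These genes arose by duplication and resemble each other, so reads can be hard to place among them.

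**Figure D2:**
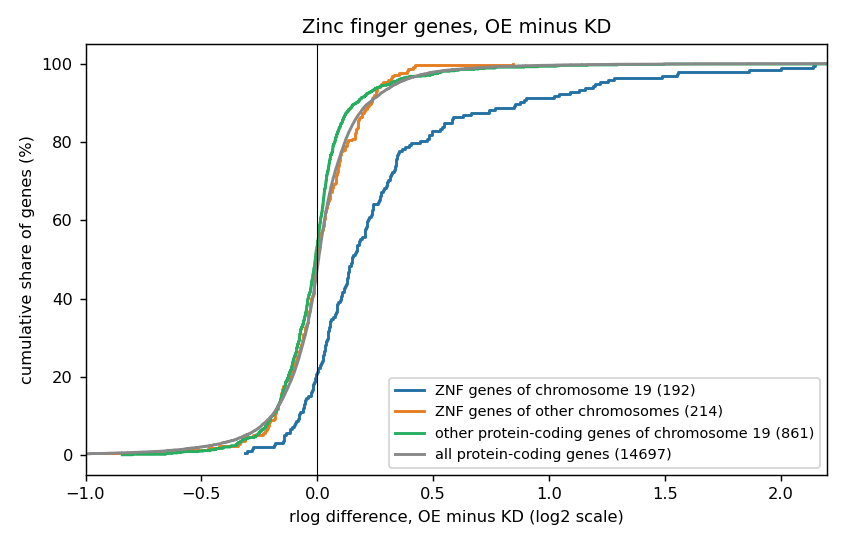
The cumulative share of genes (%, vertical axis) is drawn against the rlog difference, OE minus KD (log2 scale, shown from -1 to 2.2), for 192 ZNF genes of chromosome 19, 214 ZNF genes of other chromosomes, 861 other protein-coding genes of chromosome 19 and all 14697 protein-coding genes. The curve of the ZNF genes of chromosome 19 lies to the right of the other 3, with a median of 0.15.

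The promoters of the 3 zinc finger genes with the largest increases are shown because neighbours of this family moved together. They are 300 bases long, run from upstream of the gene to just past its start, come from RefSeq on GRCh38.p14 and are written 5′ to 3′ on the strand of the gene, with each CG, the dinucleotide that can carry DNA methylation, in capitals. ZNF320 (chr19:52897645-52897944, minus strand) holds 20 CG, ZNF682 (chr19:20039456-20039755, minus strand) 9 and ZNF83 (chr19:52690447-52690746, minus strand) 29. CG reads the same on both strands. Of 35116 promoters of this length 41.2%, 58.4% and 24.2% hold at least as many. The median is 14 over all promoters, 20 over 168 ZNF genes of chromosome 19 and 19.5 over the 26 of these with a promoter that were higher by more than 0.5. The counts describe the sequence, and methylation was not measured.
ZNF320: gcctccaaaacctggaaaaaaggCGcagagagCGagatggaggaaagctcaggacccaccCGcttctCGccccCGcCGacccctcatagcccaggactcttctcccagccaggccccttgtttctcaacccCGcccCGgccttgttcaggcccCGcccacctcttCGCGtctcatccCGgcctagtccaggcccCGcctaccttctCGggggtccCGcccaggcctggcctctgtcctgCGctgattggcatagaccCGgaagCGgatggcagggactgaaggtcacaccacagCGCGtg
ZNF682: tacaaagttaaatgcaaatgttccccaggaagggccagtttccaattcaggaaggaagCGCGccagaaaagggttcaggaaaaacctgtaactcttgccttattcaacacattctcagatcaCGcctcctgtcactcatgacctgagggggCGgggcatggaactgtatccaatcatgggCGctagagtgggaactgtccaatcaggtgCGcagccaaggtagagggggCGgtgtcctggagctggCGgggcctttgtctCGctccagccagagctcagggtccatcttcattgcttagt
ZNF83: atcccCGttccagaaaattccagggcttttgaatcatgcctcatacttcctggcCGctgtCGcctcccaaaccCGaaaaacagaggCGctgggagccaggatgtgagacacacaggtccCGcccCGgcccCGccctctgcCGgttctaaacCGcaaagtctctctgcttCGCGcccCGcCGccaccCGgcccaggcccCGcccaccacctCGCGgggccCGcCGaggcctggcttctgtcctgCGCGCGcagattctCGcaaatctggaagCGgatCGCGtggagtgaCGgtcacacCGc

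Cell adhesion molecules of the cadherin kind were mostly lower. Of 18 cadherins, which bind the same molecule on the next cell in a calcium-dependent way, 3 were higher and 10 lower, with a median of -0.079 beside 0.00078 over all genes. Besides CDH10, the type II cadherins CDH18 (-1.73), CDH8 (-0.64) and CDH7 (-0.49) were lower. CDH18 had rlog values of 7.60, 7.63 and 7.58 in KD and 5.90, 5.85 and 5.89 in OE. No library of one line reached the other. Of 14 nonclustered and other protocadherins 1 was higher and 9 were lower, with a median of -0.11. Lower among them were PCDH17 (-1.65), PCDH11X (-0.56), PCDH9 (-0.50) and PCDH15 (-0.37), the last known for the tip links of hair cells. PCDH17 had 9.60, 9.59 and 9.60 in KD and 7.91, 7.93 and 7.998 in OE, again without overlap.

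Synaptic adhesion molecules, which tie the sides of a synapse together, went both ways. Of 34, 9 were higher (26.5%) and 12 lower (35.3%), beside 29.9% and 27.5% of all protein-coding genes. The median was -0.04, and 12 passed 0.5. ADGRL2 led the increases. The neurexin relative CNTNAP2 (-1.42), the leucine-rich repeat protein LRRTM4 (-1.34) and the contactin CNTN3 (-0.92) were lower. Among 31 genes of the neuronal cytoskeleton and of differentiation, 13 were higher and 7 lower (median 0.026), and 2 adhesion molecules of the immunoglobulin family in this list moved in opposite directions. NCAM1 had 7.77, 7.71 and 7.82 in KD and 5.98, 5.89 and 5.89 in OE, a difference of -1.84. L1CAM, which promotes the outgrowth of axons, had 9.78, 9.83 and 9.82 in KD and 11.06, 11.08 and 11.12 in OE, a difference of 1.27. Neither gene had overlapping groups. Higher too were MAPT (0.93), which encodes tau, and STMN3 (0.81), a regulator of microtubules. Of 19 tubulins 7 were higher and 2 lower (median 0.047), led by TUBB2B (0.95) and TUBB2A (0.46), which are nearly identical in sequence.

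Guidance genes were called in both directions, as were protein-coding genes at large (29.9% higher and 27.5% lower). The shares were 28.6% and 38.1% for the Slit, Robo, netrin and neuropilin systems. For semaphorins and plexins they were 25.9% and 29.6%, and for Eph receptors and ephrins 26.3% and 26.3%. Calls in both directions are thus no trait of these families. Of 21 genes of the Slit, Robo, netrin and neuropilin systems 6 were higher and 8 lower. Their median of 0.0016 turned to -0.068 when genes under a mean rlog of 5 were left out, and below 0 without OE replicate 3, KD replicate 2 or KD replicate 3. NTNG1 and the Slit receptor ROBO2 (-0.98) were lower, and netrin 1, NTN1 (0.72), and the netrin receptor UNC5B (0.70) were higher. Of 27 semaphorins and their plexin receptors 7 were higher and 8 lower, with a median of 0.0029. After block medians were removed 5 were higher and 12 lower, and the median turned to -0.049. The secreted class 3 semaphorins SEMA3G (1.29), SEMA3D (0.84) and SEMA3C (0.63) were higher and the membrane-bound SEMA6B (-0.51) was lower. SEMA3G lies between 0 and 60 Mb of chromosome 3, where the median difference was 0.318, and its difference after block removal was 0.98. Of 19 Eph receptors and ephrins 5 were higher and 5 lower (median 0.024). The median fell below 0 without genes under a mean rlog of 5 and without OE replicate 3. After block medians were removed 8 were higher and 3 lower. The receptors EPHA3 (-1.03) and EPHA6 (-0.82) had the largest differences. In the reelin pathway of 10 genes, 4 were higher and 3 lower (median 0.015). Besides RELN itself, the receptor genes VLDLR (0.38) and LRP8 (-0.16) differed in opposite directions.

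The basement membrane and the interstitial matrix differed too. Laminins are the trimers of basement membranes, and of 12 genes 2 were higher and 7 lower, with a median of -0.12. LAMA2 had rlog values of 9.66, 9.68 and 9.66 in KD and 8.33, 8.28 and 8.27 in OE, a difference of -1.37, and the groups did not overlap. LAMA3 (-0.97) and LAMB3 (-0.87), chains of the same laminin of epithelia, were lower. LAMC3 was higher by 0.31, but at 0.065 and no longer called after its block median on chromosome 9 was removed. Of 41 collagens 20 were higher and 10 lower (median 0.059), with increases in the fibrillar chains COL11A1 (0.96) and COL5A2 (0.90) and in COL6A1 (0.68). COL22A1, whose neighbours on chromosome 8 were shifted upward (block median 0.24), was lower at -0.59, and at -0.83 after block removal.

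FN1, which encodes fibronectin, the ligand of integrins in the matrix, had 13.01, 13.02 and 12.997 in KD, 14.51, 14.52 and 14.52 in OE and 13.98, 13.97 and 13.97 in the parental libraries. Its parental values lay between the lines, and all 3 libraries labelled OE lay above all 3 labelled KD. The difference was 1.51 (adjusted p = 3.32e-38 from limma, standard error 0.012). In its list of 26 matrix and focal adhesion genes 10 were higher and 8 lower (median 0.025). Thrombospondin 1, THBS1, was higher (0.96), and the tensin TNS2 (-0.52) and thrombospondin 3, THBS3 (-0.38), were lower. Of 24 integrins 7 were higher and 8 lower, with a median of -0.011 that rose above 0 without genes under a mean rlog of 5 (0.015) and without OE replicate 1. ITGA1 (-0.98), ITGA10 (-0.79) and ITGA11 (0.85), the alpha chains of collagen receptors, moved in different directions, and the laminin receptor chain ITGB4 was higher (0.52). Of 23 proteoglycans 11 were higher and 7 lower (median 0.036), among them biglycan, BGN (0.57), and aggrecan, ACAN (-0.56). Among genes with names of matrix metalloproteases and their inhibitors, 3 of 18 were higher and 6 lower (median -0.016). The higher ones include an opposite-strand gene that is only named after a metalloprotease. The membrane-type protease MMP14 was lower (-0.90) and the gelatinase MMP2 was higher (0.42).

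**Figure D3:**
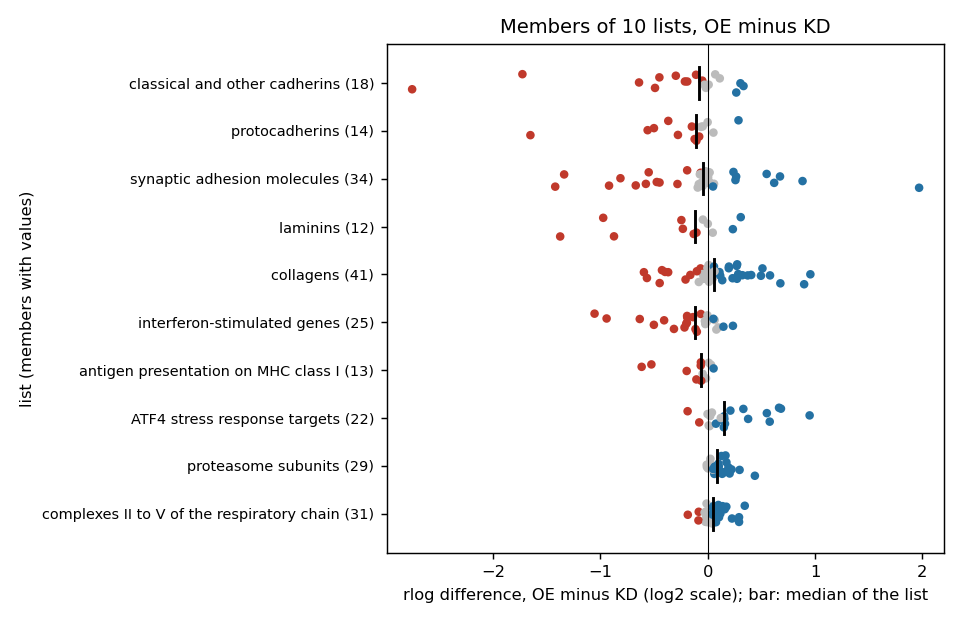
Each point is the rlog difference, OE minus KD (log2 scale, horizontal axis), of 1 member of 10 gene lists, blue where called higher, red where called lower and grey where not called, with a bar at the median of the list. Cadherins and protocadherins reach down to -2.75 and -1.65, and the proteasome subunits lie between -0.00869 and 0.44.

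Ion channels and receptors of excitable cells held large single differences. Of 66 potassium channel genes, which set the resting potential and end action potentials, 21 were higher and 16 lower (median 0.019). KCNJ10, the inward rectifier known from glia, had 8.48, 8.54 and 8.50 in KD and 7.21, 7.17 and 7.28 in OE, a difference of -1.29. The groups did not overlap. The sodium-activated KCNT2 was lower (-1.06) and the calcium-activated KCNN3 higher (0.82). Of 20 calcium channel genes 11 were higher and 3 lower (median 0.069). The pore-forming L-type genes CACNA1C (0.54) and CACNA1D (0.54) and the accessory subunits CACNA2D4 (0.57) and CACNG6 (0.49) were higher, and CACNA1D was at 0.23 after its block median on chromosome 3 was removed. Of 25 glutamate receptors 9 were higher and 4 lower (median 0.026), with increases in GRM8 (1.05) and GRIK2 (0.40) and a decrease in GRIA2 (-0.61). Of 14 GABA receptor genes 5 were higher and 3 lower (median 0.021), and GABRP was lower (-0.58).

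Genes of vesicles and secretion included a large decrease. VGF, the precursor of neuropeptides released from dense-core granules, had 14.21, 14.23 and 14.30 in KD, 12.94, 13.01 and 13.04 in OE and 12.32, 12.38 and 12.36 in the parental libraries. The order of the groups was parental, OE and KD without overlap, and the difference was -1.25 (adjusted p = 3.23e-30 from limma, standard error 0.021). Of 33 genes of the list 9 were higher and 12 lower. Its median of 0.026 turned to -0.14 when genes under a mean rlog of 5 were left out. UNC13A, which primes vesicles for release, was higher (0.77), and the vesicle protein SV2A (-0.57) and the active zone protein RIMS2 (-0.53) were lower. Among 53 Rab GTPases, which direct vesicle traffic, 15 were higher and 14 lower (median 0.014). RAB17, known from polarised epithelia, was lower (-1.20), and RAB20 was higher (0.69).

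Genes that the transcription factor ATF4 induces under amino acid and mitochondrial stress were mostly higher. Of 22 with values 14 were higher and 2 lower, with a median of 0.15 (0.14 after block medians were removed). The stress hormone gene GDF15 had rlog values of 6.67, 6.56 and 6.59 in KD and 7.53, 7.59 and 7.55 in OE, a difference of 0.95. The transcription factor ATF3 had 8.14, 8.12 and 8.20 in KD and 8.86, 8.81 and 8.84 in OE, a difference of 0.68. CHAC1, which degrades glutathione, had 7.05, 7.06 and 7.08 in KD and 7.72, 7.62 and 7.59 in OE, a difference of 0.58. In all 3 genes the OE libraries lay above the KD libraries without overlap, and the parental means of 7.62, 9.28 and 7.89 lay above those of OE. PSAT1, an enzyme of serine synthesis, was higher by 0.67, and by 0.35 after its block median on chromosome 9 was removed. In its list of 20 genes of serine synthesis and folate metabolism 9 were higher and 4 lower (median 0.041), and the glycine cleavage enzyme GLDC was lower (-0.76).

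The promoters of ATF3 and CHAC1 are shown because both were higher and hold the motif TGATGNAA, a core of the elements that ATF4 binds, which is in capitals and was searched on both strands. The motif is held by 3.62% of 35116 promoters, and by 3 of the 17 members of the list that have a promoter in the RefSeq set, which are also 3 of the 13 called members. A match is a description of the letters in this window and no measure of binding. ATF3 is at chr1:212565157-212565456 and CHAC1 at chr15:40953221-40953520, both on the plus strand of GRCh38.p14, and CHAC1 carries the motif on the other strand, where it reads TTNCATCA.
ATF3: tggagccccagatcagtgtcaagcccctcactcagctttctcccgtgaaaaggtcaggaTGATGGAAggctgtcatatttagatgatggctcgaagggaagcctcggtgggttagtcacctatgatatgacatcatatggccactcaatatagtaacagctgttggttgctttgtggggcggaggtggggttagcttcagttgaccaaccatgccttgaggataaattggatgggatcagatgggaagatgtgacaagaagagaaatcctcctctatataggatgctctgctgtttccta
CHAC1: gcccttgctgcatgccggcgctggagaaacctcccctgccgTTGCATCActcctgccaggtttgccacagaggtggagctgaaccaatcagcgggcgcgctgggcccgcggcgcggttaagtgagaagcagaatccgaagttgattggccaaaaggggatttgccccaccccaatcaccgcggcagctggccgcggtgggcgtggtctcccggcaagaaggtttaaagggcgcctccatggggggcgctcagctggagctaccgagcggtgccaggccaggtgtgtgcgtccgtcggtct

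Antiviral genes were mostly lower. Of 25 interferon-stimulated genes 3 were higher and 15 lower, with a median of -0.11 (-0.067 after block medians were removed). The exonuclease gene ISG20, which degrades viral RNA, had 11.96, 11.99 and 12.02 in KD and 10.92, 10.96 and 10.93 in OE. All KD values lay above all OE values, and the difference was -1.05 (adjusted p = 8.86e-28 from limma, standard error 0.022). IFITM2, which hinders the entry of viruses, had 9.48, 9.51 and 9.53 in KD and 8.61, 8.61 and 8.48 in OE, a difference of -0.94. The ubiquitin ligase gene HERC6 (-0.63) and the regulator IRF7 (-0.50) were lower as well, and HERC6, in the shifted stretch of chromosome 4, was at -0.15 after block removal. Among 13 genes of antigen presentation on MHC class I 1 was higher and 7 were lower, with a median of -0.06. After block medians were removed the counts were 3 and 4 (median -0.022). HLA-C (-0.62) and HLA-B (-0.52), which present peptides, and the immunoproteasome gene PSMB8 (-0.20) were lower. HLA genes resemble each other, and 47.3% of the exonic bases of HLA-B are shared with other genes.

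The promoters of ISG20 and of BST2, the virus tether tetherin, with a difference of -0.41, hold the motif GAAANNGAA of the interferon response, shown in capitals. It was searched on both strands (TTCNNTTTC on the other), and overlapping matches, as in BST2, run together. Of 35116 promoters 8.11% hold it, as do 13 of the 19 members of the list with a promoter and 10 of the 14 called members. BST2 was chosen for printing, and this motif and that of ATF4 were chosen, after the values were seen. Again a match describes letters and is not evidence of a factor. ISG20 is at chr15:88638766-88639065 on the plus strand and BST2 at chr19:17405581-17405880 on the minus strand.
ISG20: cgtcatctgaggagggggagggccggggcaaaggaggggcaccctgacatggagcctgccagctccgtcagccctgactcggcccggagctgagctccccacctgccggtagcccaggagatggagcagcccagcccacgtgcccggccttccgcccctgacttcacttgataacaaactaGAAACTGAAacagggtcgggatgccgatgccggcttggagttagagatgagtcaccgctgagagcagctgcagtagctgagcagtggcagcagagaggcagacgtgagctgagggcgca
BST2: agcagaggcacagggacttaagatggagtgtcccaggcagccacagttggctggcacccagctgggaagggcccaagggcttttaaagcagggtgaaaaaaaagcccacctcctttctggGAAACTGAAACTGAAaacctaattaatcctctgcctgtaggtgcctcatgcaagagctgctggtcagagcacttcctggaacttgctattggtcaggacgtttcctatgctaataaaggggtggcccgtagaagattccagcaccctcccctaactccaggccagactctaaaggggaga

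Proteasome subunits and targets of NRF2 tended upward. The proteasome degrades tagged proteins, and of 29 subunits 21 were higher and 0 lower, with a median of 0.09. PSMD6 (0.44) and PSMD12 (0.20) of the regulatory particle were higher. PSMB7 of the core was higher by 0.30, and by 0.054 after its block median on chromosome 9 was removed. Of 22 targets of NRF2, the regulator of antioxidant genes, 13 were higher and 5 lower (median 0.10). AKR1C2 (0.54) and AKR1C1 (0.47), near-identical aldo-keto reductases, the heme oxygenase HMOX1 (0.49) and GCLM (0.43) of glutathione synthesis were higher. Enzymes that remove superoxide and peroxide split, 8 of 19 being higher and 6 lower, with a median of -0.032 that turned to 0.011 after block medians were removed. The extracellular superoxide dismutase SOD3 had 11.92, 11.93 and 11.99 in KD and 10.48, 10.52 and 10.57 in OE, a difference of -1.42. Its groups lay wide apart, and the OE values overlapped the parental ones (10.59, 10.49 and 10.61). The glutathione transferase MGST1 was lower too (-0.90).

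Most genes of mitochondria differed by little. Of 31 genes of complexes II to V 19 were higher and 3 lower (median 0.054), and of 32 complex I subunits 13 were higher and 7 lower (median 0.04). No member of either list passed 0.5. The cytochrome c gene CYCS (0.29) and UQCR10 of complex III (0.29) were higher, as was UQCRC1 (0.35), which was at 0.036 and no longer called once its block median on chromosome 3 was removed. Of 13 genes of the mitochondrial genome 8 were higher and 4 lower (median 0.072), with MT-CO2 at -0.26 and MT-ND3 at 0.22. The 62 mitochondrial ribosomal proteins had 33 higher and 11 lower (median 0.062). MRPL41 was higher by 0.65 (0.41 after block removal), and MRPL1 at -0.53 was at 0.0092 after block removal. Of 19 chaperones and proteases of mitochondria, the neighbours of TRAP-1 in function, 9 were higher and 2 lower (median 0.049). The chaperonin HSPD1 (0.26) and the cyclophilin PPIF (0.19) were higher and the protease HTRA2 was lower (-0.21). Of 45 SLC25 carriers 17 were higher and 8 lower (median 0.03), among them the ADP/ATP carrier SLC25A31 (0.63), the S-adenosylmethionine carrier SLC25A26 (0.53) and the calcium-regulated SLC25A23 (0.53).

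In metabolism outside the respiratory chain, 12 of 19 genes of glutamine, aspartate and proline metabolism were higher and 1 was lower (median 0.09). After block medians were removed the counts were 10 and 4. The alanine transaminase GPT2 (0.26) and the glutamine carriers SLC1A5 (0.20) and SLC38A2 (0.20) were higher. For fatty acid synthesis the counts were 5 higher and 8 lower of 16 (median -0.065). ACSS2, which makes acetyl-CoA from acetate, was at -0.68, and at -0.91 after its block median on chromosome 20 was removed. Of 21 genes of cholesterol synthesis and uptake 8 were higher and 7 lower (median 0.025), with the reductase DHCR7 lower (-0.29). Of 35 genes that hypoxia induces 19 were higher and 6 lower (median 0.078), with increases in the lipase inhibitor ANGPTL4 (0.49) and the peptide hormone ADM (0.42). BHLHE40 was at 0.48 and, in its shifted stretch of chromosome 3, at 0.13 after block removal. Glycolysis had 11 higher and 8 lower of 23 (median 0.057), the citric acid cycle 11 and 7 of 30 (median 0.017). Purine salvage, GDA included, had 8 higher and 6 lower of 18, and its median of 0.019 turned to -0.006 after block medians were removed.

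Among transporters, ABCA8, which carries lipids, had 9.53, 9.52 and 9.50 in KD and 8.40, 8.45 and 8.50 in OE, a difference of -1.07. The parental values of 7.02, 7.13 and 7.12 lay below both lines. Of 42 ABC transporters 15 were higher and 12 lower, with a median of 0.0062 that turned to -0.027 when genes under a mean rlog of 5 were left out. ABCA13 (0.64) and ABCA10 (0.60), a neighbour of ABCA8 on chromosome 17, were higher. Of 216 SLC transporters outside the SLC25 family 56 were higher and 61 lower, with a median of 0.0023 that fell below 0 without genes under a mean rlog of 5 (-0.021) and in 4 of the fits that left out 1 library. The sugar transporter SLC2A6 (1.08, 0.84 after block removal on chromosome 9), the thiamine transporter SLC19A3 (0.89) and the amino acid transporter SLC43A2 (0.76) were higher, and SLC44A5 was lower (-0.63).

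Signalling genes were called in both directions, as were protein-coding genes at large (29.9% higher and 27.5% lower). Immediate early genes respond within minutes to growth factors, and of 22 11 were higher and 6 lower (median 0.053, and 0.0021 after block medians were removed). EGR1 had 12.89, 12.88 and 12.90 in KD and 12.02, 12.02 and 12.04 in OE, a difference of -0.86. FOS (-0.67) and the nuclear receptor NR4A2 (-0.63) were lower with it, whereas ATF3 was higher. In the EGF family 5 of 15 were higher and 6 lower, with a median of -0.02 that turned to 0.072 after block medians were removed. Neuregulin 1, NRG1, was higher (1.10), and NRG2 (-0.44) and TGFA (-0.44) were lower. Of 25 phosphatases and Sproutys that dampen MAP kinase signalling 10 were higher and 10 lower, with a median of 0.013 that turned to -0.006 after block medians were removed, and SPRY4 (-0.54) and SPRY1 (-0.53) were lower and DUSP9 (0.53) was higher. Of 42 genes of TGF-beta and BMP signalling 18 were higher and 10 lower (median 0.025). Besides GDF15, the inhibitor SMAD6 (0.91), the ligand BMP7 (0.74) and the BMP target ID3 (0.48) were higher.

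In the Notch pathway 8 of 22 were higher and 7 lower, with a median of -0.013 that turned to 0.018 after block medians were removed. The receptors NOTCH1 (0.53, 0.28 after block removal on chromosome 9) and NOTCH2 (-0.39) went opposite ways, and the target HES1 (-0.56, -0.31 after block removal on chromosome 3) and the ligand JAG1 (-0.47) were lower. Of 27 genes of YAP and TAZ with their targets 15 were higher and 8 lower (median 0.066), led by the matrix protein gene CCN2 (0.43). WNT ligands and Frizzled receptors had 9 higher and 6 lower of 22 (median 0.037), led by FZD9 (-0.47) and WNT9A (0.44).

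Imprinted growth regulators are expressed from 1 parental allele, and of 10 with values 6 were higher and 1 was lower (median 0.13). NDN, which encodes necdin, a growth suppressor of neurons, had 5.66, 5.64 and 5.63 in KD and 6.70, 6.71 and 6.70 in OE, a difference of 1.06. The cell cycle inhibitor CDKN1C had 8.06, 8.10 and 8.12 in KD and 9.04, 9.09 and 9.08 in OE, a difference of 0.98. Both were without overlap. MEST (0.77) and the adaptor GRB10 (0.37) were higher as well. Of 20 p53 targets 12 were higher and 2 lower (median 0.081). The nuclease AEN was lower (-0.40), and PHLDA3 (0.30) and SESN2 (0.21) were higher. Of 51 TRIM genes, many of them ubiquitin ligases, 7 were higher and 22 lower (median -0.034), with TRIM60 (-0.75), TRIM51 (-0.72) and TRIM62 (-0.65) lower. Long intergenic noncoding RNAs named LINC, the family here that is not protein coding, had 125 higher and 210 lower of 908 (median -0.0086). Past 0.5 lay 11 higher and 34 lower, among the latter LINC01482 (-1.49) and LINC02780 (-1.47).

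Secreted proteases and their inhibitors were another group with single large differences. Of 32 ADAM, ADAMTS and ADAMTS-like genes 13 were higher and 11 lower. Their median of 0.02 turned to -0.0014 after block medians were removed. The secreted ADAMTS7 (0.81) and ADAMTS9 (0.57) were higher and the membrane-bound ADAM19 was lower (-0.53). Of 20 serpins 9 were higher and 5 lower (median 0.036), led by SERPINB7 (0.81). In the list of complement and coagulation, which holds A2M, 10 of 29 were higher and 8 lower, with a median of -0.0059 that turned to 0.0013 after block medians were removed. The central complement protein C3 was higher (0.52), and its regulator CD55 was lower (-0.46). Of 13 S100 proteins, which bind calcium, 5 were higher and 4 lower, with a median of 0.015 that turned to -0.014 without OE replicate 3. S100A16 had 13.73, 13.75 and 13.77 in KD and 13.03, 13.001 and 13.04 in OE, a difference of -0.73, and S100A4, known from motile cells, was higher (0.58).

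Regulators of survival, iron and position along the body axis had members in both directions, beside 29.9% higher and 27.5% lower of all protein-coding genes. In the BCL2 family, which governs the permeability of mitochondria in apoptosis, 8 of 19 were higher and 4 lower, with a median of -0.019 that turned to 0.036 after block medians were removed. The survival gene BCL2A1 was lower (-0.66), and BCL2L1 was higher by 0.38 (0.15 after block removal on chromosome 20). Of 16 genes of iron handling 6 were higher and 3 lower (median 0.017). TFRC, the transferrin receptor, was higher by 0.37 although its block on chromosome 3 was shifted downward (-0.25), and by 0.62 after block removal. The ferritin chain gene FTH1 was higher (0.35), with 63.2% of its exonic bases shared with other genes. Of 21 HOX genes 6 were higher and 3 lower (median 0.018, but -0.015 without genes under a mean rlog of 5), led by HOXC13 (0.40). In the family of MYC and its partners 3 of 12 were higher and 5 lower (median -0.043), and MYCL was higher (0.41). The pentose phosphate pathway had 4 higher and 3 lower of 11 (median 0.029), led by H6PD (-0.30) and by TKT (0.28, -0.027 after block removal on chromosome 3).

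Several large machines had small median differences. Of 74 cytosolic ribosomal proteins 26 were higher and 27 lower (median 0.0088, but below 0 without OE replicate 3 or KD replicate 2), which became 34 and 18 after block medians were removed (median 0.032). Of 41 genes of the cell cycle and DNA replication 11 were higher and 11 lower (median 0.018). No member of either list passed 0.5. The largest differences of the cell cycle list were in the replication factor GINS1 (0.44, 0.21 after block removal on chromosome 20) and the kinase inhibitor CDKN2C (-0.38). Of 18 chaperones of the endoplasmic reticulum 6 were higher and 5 lower, and their median of 0.0011 turned to -0.019 after block medians were removed. Of 18 genes of mitochondrial fusion, fission and mitophagy 4 were higher and 5 lower (median 0.0085, but just below 0 without KD replicate 3). Of 51 histone genes 11 were higher and 2 lower (median 0.022), and 38 were not called. After block medians were removed 39 were higher and 2 lower (median 0.093), beside 6096 and 5802 of all 22290 genes. The same constant is then taken from every gene of a block, so genes with differences near 0 can be called through it alone. The added histone calls are therefore not read as a difference between the lines.

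Stretches of some chromosomes moved as a whole. They were picked after the values were seen, among 149 blocks of 20 Mb, from the 9946 genes whose mean rlog was 8 or more, of which 49% were higher at a median of -0.0033. On chromosome 3 between 0 and 60 Mb 236 of 248 such genes were higher (95.2%), with a median of 0.318. The median of KD minus parental was -0.297 there and that of OE minus parental 0.00972. On chromosome 9 between 60 and 140 Mb 278 of 295 were higher (94.2%), with a median of 0.271, on chromosome 20 between 20 and 40 Mb 80 of 90 (88.9%), with 0.229, and on chromosome 8 between 120 and 160 Mb 79 of 98 (80.6%), with 0.171. On chromosome 4 between 60 and 100 Mb 58 of 65 were lower (89.2%), with a median of -0.529, a KD minus parental median of 0.412 and an OE minus parental median of -0.0337. That stretch holds 49 of the 436 genes lower by more than 0.5. On chromosome 3 between 180 and 200 Mb 66 of 77 were lower (85.7%), with a median of -0.252. In the 137 blocks whose median was within 0.2 of 0, the share of higher genes ran from 14.7% to 82.5%. DNA copy number was not analysed here, and what sets these stretches apart was not tested.

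**Figure D4:**
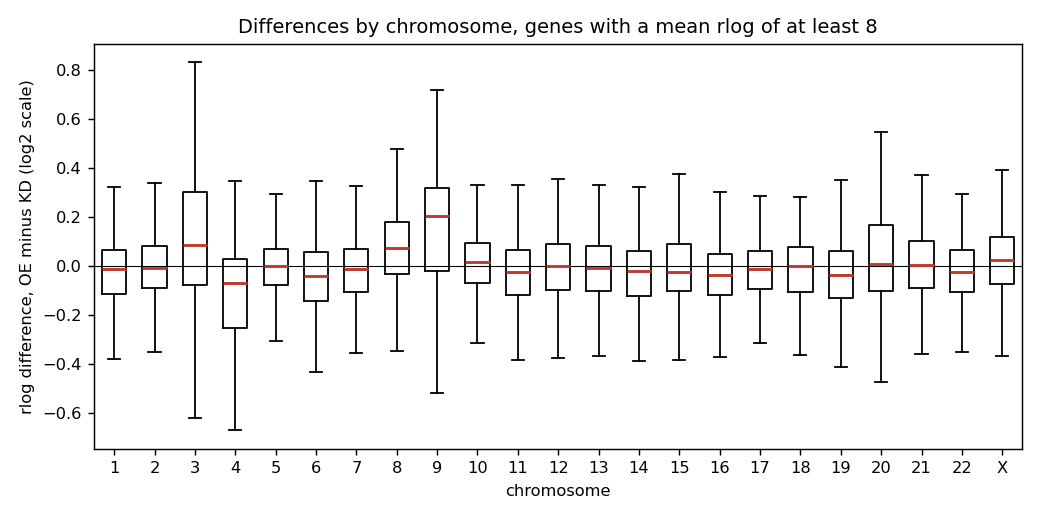
Boxes give the quartiles and a red line the median of the rlog difference, OE minus KD (log2 scale, vertical axis), of well expressed genes (mean rlog of 8 or more) on each chromosome, and whiskers reach to the last gene within 1.5 box lengths. The medians of chromosomes 3, 8 and 9 lie furthest above 0 and that of chromosome 4 furthest below, with shifted stretches such as that of chromosome 4 between 60 and 100 Mb (median -0.529).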

How the data were processed

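Reads were trimmed by the authors (cutadapt), aligned to GRCh38 (HISAT2) and counted by gene (featureCounts, Subread), and genes whose counts summed to less than 10 were dropped. What the authors deposited, and what is used here, is the log2 scale rlog of DESeq2 for 22290 genes. Their gene annotation is not given in the sources used here. The libraries were not stranded, so genes that overlap others are uncertain, and 3 value columns that belong to no library were left out. Differences were tested with limma 3.58.1 in R 4.3.3, with a variance trend, a mean per group and 1 spread for all 9 libraries, two-sided, with Benjamini-Hochberg adjustment over 22290 genes and a threshold of 0.05. The code was tested on simulated data. GENCODE 44 gave 18433 genes a symbol and 22195 a position. Named are TRAP1, the 10 largest increases and 10 largest decreases without overlap between libraries, up to 4 called members of each list with the largest differences, and markers. Lists were described by counts and medians, without a set test. Members and lists were chosen with earlier results of these data known.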

Additional observations from a re-analysis of the deposited data

How the results depend on the processing

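The numbers of genes called stayed within 1.5 times the reported ones under 14 alternatives (the 6 libraries alone, a replicate block, no variance trend, robust empirical Bayes, a minimum mean rlog of 5, centred libraries, 20-Mb block medians removed, each of the 6 libraries left out, and a threshold of 0.01). Called genes ran from 9636 to 10004 with 1 library left out, and genes past 0.5 from 796 to 806. With the replicate block, which pairs libraries by number, 10623 were called. The numbers were not taken as pairs, since the residuals of libraries with the same number had correlations across genes between -0.0711 and 0.14. With block medians removed, 11898 genes were called. The difference of TRAP1 was -0.0975 to -0.151 with 1 library left out and -0.0706 after block medians were removed (adjusted p = 0.0184 from limma, against 7.83e-06 to 0.0184 over all alternatives). Removing block medians reversed MRPL1 (0.00924) and TKT (-0.0269), neither called then, and the cause was not tested. ISL1 lost its call without OE replicate 2 (0.0795, adjusted p = 0.0664 from limma) and without KD replicate 3 (0.0855). Medians of gene lists near 0 were less stable. A minimum mean rlog of 5 changed the sign of 13 of them, block removal of 12 and leaving out 1 library of 3 to 13, and the other alternatives, centring among them, of none. The depth of the libraries is unknown from rlog values, so no limit on small differences from depth can be given.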
